A study of Homo sapiens with 8 samples.

Results

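The respiratory chain set holds 43 genes: the 13 messenger RNAs (mRNAs) of the mitochondrial genome, 28 nuclear genes for subunits of complexes I to V, and the regulators PPARGC1A and TFAM. They are taken by name, and the rule has no threshold on a measured value. All 43 were found among the 63241 gene rows of the deposited count table, and all 43 were among the 21192 genes tested after a filter on low counts. RNA had been sequenced from 8 libraries labelled HSC3, an established line of human squamous carcinoma from the mouth. By their labels, 4 libraries (knockdown 1 to 4) came from cells given si-Col1a1, a small interfering RNA (siRNA) against the collagen gene COL1A1, and 4 libraries (control 1 to 4) from cells given si-NC, the control siRNA. Both siRNAs were used at 100 pmol with Lipofectamine 3000, and cells stood for 48 hours before collection. The labels give the molecule as polyA RNA, while their protocol describes removal of ribosomal RNA from total RNA. They leave unsaid whether libraries of a label are separate cultures. The p-values therefore measure the spread between these libraries alone, which may be technical.

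The respiratory chain passes electrons from NADH and succinate to oxygen and stores the energy as a proton gradient across the inner mitochondrial membrane, which ATP synthase (complex V) uses to make ATP. Complexes I, III, IV and V combine subunits of the mitochondrial and the nuclear genome, and complex II is wholly nuclear. The mitochondrial polymerase copies both strands of the circular genome into long precursors, which TFAM helps to start and which are cut into single mRNAs. PPARGC1A is a coactivator that raises transcription of the nuclear subunits, above all in muscle. Striated muscle makes its own forms of some complex IV subunits: COX6A2 and COX7A1 take the places that COX6A1 and COX7A2 hold in most other cells.

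Total counts ran from 30684584 to 61795990 per library, and levels below are a gene's counts over all counts of the library, scaled to parts per 1e6 (CPM). COL1A1, the siRNA target, stood at 368, 123, 301 and 155 CPM in knockdown 1 to 4 and at 88.9, 8183, 476 and 689 CPM in control 1 to 4. The labels overlapped, and control 1 lay below every knockdown library. The libraries also differed in tissue markers within each label. Skeletal muscle genes (31 matched of a list of 32) took 0.0266%, 4.23%, 0.0179% and 5.40% of counts in knockdown 1 to 4 and 17.2%, 0.517%, 16.9% and 0.0323% in control 1 to 4. A list of 21 salivary gland genes took 13.4% of counts in knockdown 2 and 20.1% in control 1, and at most 0.0145% elsewhere. A list of 12 squamous keratinocyte genes, which mark the labelled cell type, took 0.0536% (control 1) to 16.8% (knockdown 1). A line grown from a squamous carcinoma is not known to make skeletal muscle or salivary gland transcripts. These data therefore go against the label HSC3 in the libraries rich in them, and COL1A1 does not separate the siRNA labels. A list of 8 leukocyte genes took 0.00418% to 0.0367% of counts, and 4 endothelial genes took 0.0128% to 0.0493%. Both lists had counts in all 8 libraries, so those poor in muscle and gland are not shown to be HSC3 either. The column names of the count table also mark the treated libraries as KO where the sample titles have KD. What the libraries hold was not settled here, and every comparison below is between libraries as labelled. In such bulk libraries, fewer cells of a type and less RNA per cell cannot be told apart.

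The 13 mitochondrial mRNAs together took 0.783%, 4.10%, 3.61% and 4.15% of counts in knockdown 1 to 4 and 2.22%, 0.477%, 4.45% and 1.06% in control 1 to 4. Knockdown 1, control 2 and control 4 were low, control 3 was the highest of the 8, and the labels overlapped. The share averaged 3.16% ± 1.60 (SD, n = 4) under the knockdown label and 2.05% ± 1.76 (SD, n = 4) under the control label. Between the lowest and the highest library the share differed by a factor of 9.34. Counting error is small beside this, since Wilson 95% intervals reached no more than 0.00711 percentage points below any share.

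The 28 nuclear subunits summed to 1700, 2128, 1560 and 2917 CPM in knockdown 1 to 4 and to 3346, 2368, 4018 and 2300 CPM in control 1 to 4. This sum was lowest in knockdown 3 and knockdown 1 and highest in control 3 and control 1, and it spanned a factor of 2.58. It averaged 2076 CPM ± 611 under the knockdown label and 3008 CPM ± 826 under the control label (SD, n = 4 each), again with overlap. The 2 genomes did not keep one order over the libraries. Knockdown 3 ranked 4 of 8 in mitochondrial mRNA and 8 of 8 in nuclear subunits, and control 2 ranked 8 and 4.

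**Figure D1:**
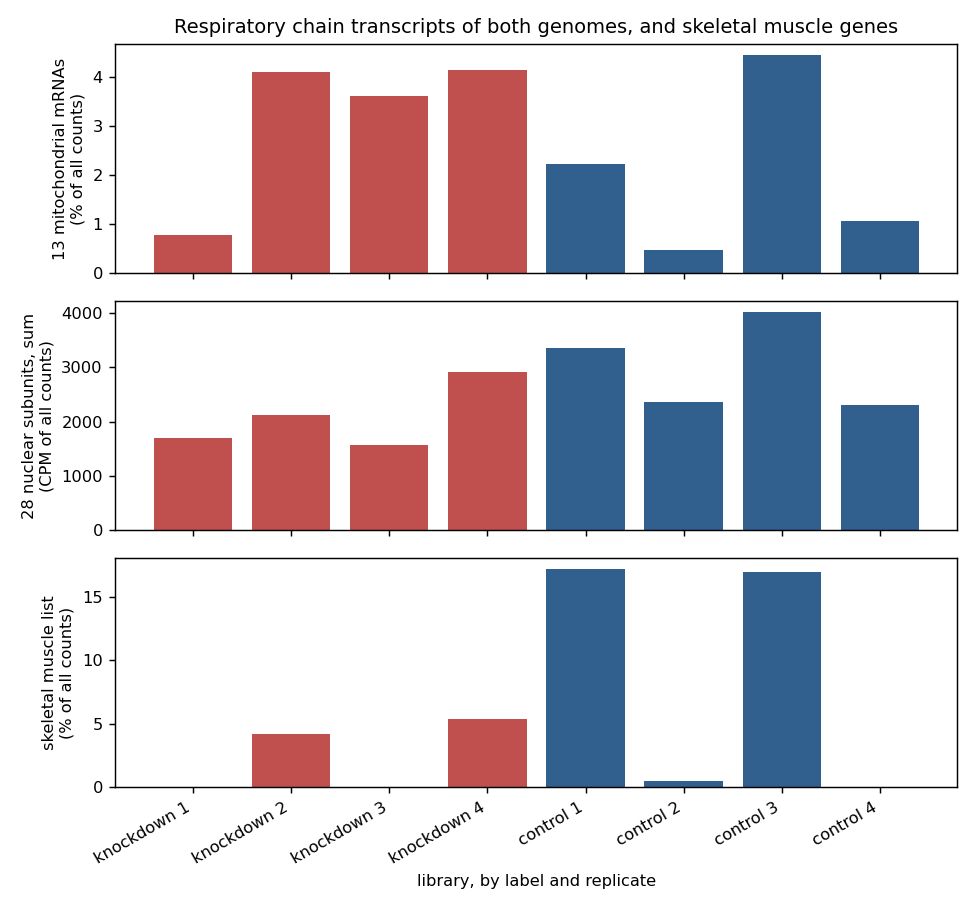
Bars give, for each of the 8 libraries, the share of counts in the 13 mitochondrial mRNAs (%), the summed level of the 28 nuclear subunits (CPM) and the share of counts in skeletal muscle genes (%), with knockdown-labelled libraries in red and control-labelled ones in blue. Knockdown 3 has 3.61% mitochondrial mRNA with the lowest nuclear sum, 1560 CPM, and control 3 is highest in both.

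The ratio of the mitochondrial to the nuclear sum does not depend on how libraries are scaled. It was 4.60, 19.3, 23.1 and 14.2 in knockdown 1 to 4 and 6.64, 2.01, 11.1 and 4.59 in control 1 to 4. Knockdown 2, 3 and 4 lay above every control library, and knockdown 1 lay within the control range. On the log2 scale the ratio averaged 3.71 ± 1.04 and 2.35 ± 1.04 (SD, n = 4 each), a difference of 1.36, which was not tested. With 53 further nuclear subunits added to the denominator the difference was 1.30.

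Muscle counts and the nuclear sum shared their top libraries. The 3 libraries with the highest nuclear sums, control 3, control 1 and knockdown 4, were also the 3 with the most muscle counts. The mitochondrial share was 3.61% in knockdown 3, the library with the fewest muscle counts, and 0.783% in knockdown 1, which had hardly more. These 2 libraries were also alike in the sum of squamous keratinocyte genes, at 13.2% and 16.8% of counts, but not in each gene of that list. KRT14 stood at 28854 CPM in knockdown 3 and 32387 CPM in knockdown 1. KRT4 stood at 285 and 11999 CPM there, and KRT10 at 7933 and 972 CPM. The part of muscle or gland content in the differences between labels was not tested beyond the fits with and without it given below.

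Within the mitochondrial genome, MT-CO1, the catalytic core of complex IV, took most of the counts. Per kilobase of its 1542 bases it ran from 2086 to 19284 CPM, against 411 to 3977 CPM per kilobase for MT-CO3, the next, a further core subunit of the same complex. MT-ATP8, a small complex V subunit, was the lowest at 5.08 to 47.0 CPM per kilobase. Its gene shares its last 46 bases with the start of MT-ATP6, and a read that lies in both cannot be given to 1 of them, so the level of MT-ATP8 is uncertain. The stretch is shown because it sets what can be counted for this pair (GRCh38, chrM:8506-8572, plus strand, coding sequence), with the shared bases in capitals from the MT-ATP6 start codon on.
MT-ATP8 end and MT-ATP6 start: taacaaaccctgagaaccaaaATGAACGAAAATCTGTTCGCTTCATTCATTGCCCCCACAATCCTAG
MT-ND4L and MT-ND4 overlap by 7 bases in the same way.

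Complex I has 7 mitochondrial subunits, which form its membrane arm. MT-ND4L stood at 95.1, 437, 477 and 562 CPM in knockdown 1 to 4 and at 146, 31.4, 261 and 101 CPM in control 1 to 4. Knockdown 2, 3 and 4 lay above all controls and knockdown 1 below 3 of them. Its fitted log2 fold change, knockdown minus control, was 1.71 (SE 0.717, edgeR adjusted p = 0.981, unadjusted p = 0.0411). MT-ND3 stood at 28.1, 163, 123 and 178 CPM, against 61.2, 14.0, 101 and 23.6 CPM, with a fitted change of 1.43 (SE 0.707). Knockdown 2, 3 and 4 again lay above all controls, and knockdown 1 lay above 2 of them.

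The other complex I subunits were low in the same 3 libraries, knockdown 1, control 2 and control 4. MT-ND1 stood at 381, 1845, 1932 and 2094 CPM in knockdown 1 to 4 and at 1127, 224, 1897 and 445 CPM in control 1 to 4 (log2 fold change 0.92, SE 0.817). MT-ND2 stood at 163, 906, 715 and 1045 CPM, against 382, 66.7, 790.5 and 186 CPM (1.14, SE 0.796). In both genes knockdown 1 fell among the low controls. MT-ND4 stood at 675, 3094, 2930 and 4171 CPM, against 1439, 259, 2999 and 643 CPM (1.19, SE 0.888). MT-ND5 stood at 291, 1884, 1707 and 1889 CPM, against 1049, 181, 1642 and 302 CPM (1.01, SE 0.861). Control 3 lay inside the range of the knockdown libraries in both. MT-ND6, the single mRNA of the set that is read from the other strand, stood at 71.9, 498, 559 and 560 CPM, against 296, 43.7, 493 and 54.8 CPM (1.09, SE 0.901).

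Outside complex I, MT-CYB, the cytochrome b of complex III, stood at 454, 2323, 1339 and 2982 CPM in knockdown 1 to 4 and at 1315, 213, 2076 and 605 CPM in control 1 to 4 (0.85, SE 0.820). MT-CO1 stood at 4291, 25064, 21374 and 21826 CPM, against 14119, 3216, 29736 and 6819 CPM (0.60, SE 1.22). Control 3 was the highest of the 8 for MT-CO1, which was otherwise so only for MT-ATP8. MT-CO2, the copper subunit that takes electrons from cytochrome c, stood at 289, 822, 927 and 1098 CPM, against 385, 84.3, 853 and 293 CPM (1.15, SE 0.713). MT-CO3 stood at 755, 2925, 2932 and 3118 CPM, against 1398, 322, 2629 and 712 CPM (1.12, SE 0.806). Both put control 3 level with knockdown 2 to 4 or just under them. MT-ATP6, the proton channel subunit of ATP synthase, stood at 330.1, 1041, 1043 and 1939 CPM, against 507, 108, 1040 and 372.5 CPM (1.26, SE 0.753). MT-ATP8 stood at 2.56, 5.74, 4.83 and 7.04 CPM, against 4.13, 1.05, 9.74 and 1.46 CPM (0.48, SE 0.711). Every one of the 13 mRNAs was lowest in control 2, and 11 were highest in knockdown 4.

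**Figure D2:**
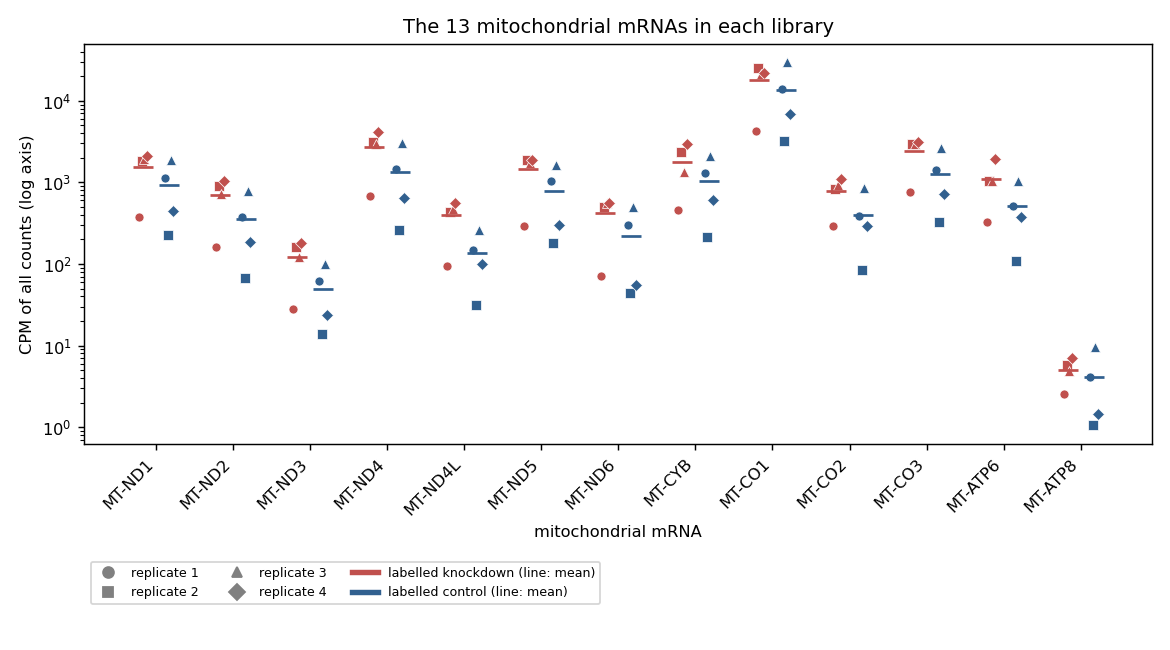
Each point is the level of a mitochondrial mRNA in 1 library (CPM, log axis), red for the knockdown label and blue for the control label, with a marker shape per replicate and a line at the mean of each label. Control 2 is the lowest point for all 13 genes, and knockdown 1 sits with the low controls.

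No member was called between the labels by edgeR's quasi-likelihood test at a Benjamini-Hochberg adjusted p under 0.05: 0 of 43 members, beside 0 of all 21192 genes (0%). At an unadjusted p under 0.05 there were 1013 genes in all (4.78%), 615 higher (2.9%) and 398 lower (1.88%) under the knockdown label. Among the members there were 3: MT-ND4L higher, and SDHA and UQCRFS1 lower. DESeq2 called 148 genes of 24437 with an adjusted p (0.606%), and no member. The smallest adjusted p of any member in the edgeR fit was 0.981.

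All 13 mitochondrial mRNAs were fitted higher under the knockdown label, with a median log2 fold change of 1.12 (0.48 to 1.71), beside 46.8% of all genes fitted higher, 53.2% lower and a median of -0.046 over all genes. All but MT-ND6 are cut from precursors of the same strand, and all were measured in the same 8 libraries. These are therefore not 13 separate observations, and their SEs ran from 0.707 to 1.22. When library totals replaced TMM factors (trimmed mean of M-values) in the scaling, this moved the median of all genes to -0.21 and that of the 13 mRNAs to 0.94. Leaving out 1 library at a time, the median ran from 0.80 (without control 2) to 1.65 (without control 3), and all 13 stayed higher each time.

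With the skeletal muscle share of each library as a covariate, the median of the 13 mRNAs was 2.14, and 12 of 13 had an unadjusted p under 0.05, beside 9.97% of all genes; 1 gene of all was called (0.00472%), no member. In that fit 53% of all genes were fitted higher. The share entered as a percent of counts, without a log, and ran from 0.0179% to 17.2%. Libraries with 0.0179% (knockdown 3) and 0.517% (control 2) were thus treated as nearly alike. When the 4 libraries whose muscle or gland list exceeded 1% of counts were left out, knockdown 1 and 3 were compared with control 2 and 4. The median of the 13 mRNAs was then 2.31, and 10 had an unadjusted p under 0.05, beside 10.6% of 22260 genes; 0 were called (0%) and 47.5% were fitted higher. In these 4 libraries the mitochondrial share was 0.783% and 3.61% against 0.477% and 1.06%. The labels overlapped there too, and knockdown 3 alone lay far from the rest. The 4 libraries still differed in other cell types. Squamous keratinocyte genes took 16.8% and 13.2% of counts against 6.46% and 5.69%. A list of 8 fibroblast genes took 0.0701% and 0.0394% against 1.30% and 0.135%. The part of these cell types was not tested. The median of the 13 mRNAs was 1.12 with all 8 libraries, so its size depends on which libraries are compared.

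The make-up of the mitochondrial mRNA pool differed between the labels in MT-CO1. Its share of the 13-gene counts was 54.8%, 61.1%, 59.3% and 52.6% in knockdown 1 to 4 and 63.5%, 67.5%, 66.8% and 64.6% in control 1 to 4. Each knockdown library lay below each control library, at 57.0% ± 3.91 against 65.6% ± 1.86 (SD, n = 4 each). The shares of MT-ND2, MT-ND3, MT-ND4, MT-ND4L and MT-CO3 did not overlap either and were higher under the knockdown label, and those of the other 7 mRNAs overlapped. For MT-ND4L the share was 1.07% to 1.36% under the knockdown label against 0.586% to 0.959% under the control label.

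That makes 6 of 13 shares whose labels did not overlap, beside 2.35% of all genes on CPM (0.882% higher, 1.47% lower). It compares with 1 of the 28 nuclear subunits (NDUFB8) and 2 of 53 further nuclear subunits, each as a share of its own set. Shares of 1 sum are not independent, and here they hang on MT-CO1: as shares of the other 12 mRNAs, the labels overlapped for all 12. This is a description of a set of shares, looked at after the values were seen, and was given no test. Of the 100-base stretches of MT-CO1, 27.9% also occur in MTCO1P12, a copy on chromosome 1, as do 26.1% of those of MT-ND2 in MTND2P28, so counts of these 2 genes depend on how shared reads were treated. Such copies took 0.00764% to 0.0684% of counts. The ratio of MT-CO1 to MT-CO2, each per base of length, ran from 6.59 in knockdown 1 to 16.9 in control 2, with a median of 11.9.

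Other RNAs of the mitochondrial genome were near zero. The ribosomal RNAs MT-RNR1 and MT-RNR2 reached at most 2.96 and 3.42 CPM, both in control 4, and 17 of the 22 transfer RNAs were at 0 in all 8 libraries. MT-TP, the proline transfer RNA, was the one found in every library, at 3.27 to 38.5 CPM, with its highest level in knockdown 3.

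The nuclear subunits were fitted the other way. Of 28, 25 were fitted lower and 3 higher (NDUFV2, COX6A1 and COX7A2) under the knockdown label, with a median log2 fold change of -0.30, beside -0.046 over all genes, and none was called. With the muscle share as covariate 13 were fitted higher and 15 lower, with a median of -0.087. Without the libraries over 1% muscle or gland counts 15 were higher and 12 lower of 27 tested, with a median of 0.047. The lean to the lower side was thus not seen in that fit, which was scaled by TMM factors. On CPM of column totals it was seen there. The nuclear sum was 1700 and 1560 CPM in knockdown 1 and 3, below 2368 and 2300 CPM in control 2 and 4. In the main fit the TMM factors of these libraries were 0.847 and 0.750 against 1.10 and 1.08, so the lean depends on scaling. A further list of 53 nuclear subunits gave 11 higher and 41 lower of 52 tested, with a median of -0.19 and none called. Its genes of highest CPM, ATP5PB of the ATP synthase stalk and COX7C of complex IV, were fitted at -0.19 (SE 0.282) and -0.32 (SE 0.372).

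In complex I, which oxidises NADH, 6 of 7 nuclear members were fitted lower (NDUFA9, NDUFB5, NDUFB8, NDUFS1, NDUFS3 and NDUFV1). NDUFS1, an iron-sulfur subunit of the arm that takes electrons from NADH, had the highest CPM. It stood at 84.2, 158, 87.4 and 189 CPM in knockdown 1 to 4 and at 284, 127, 374 and 84.7 CPM in control 1 to 4. Control 1 and control 3 were high and control 4 was level with knockdown 1. Its fitted change was -0.64 (SE 0.513, adjusted p = 0.981), and it turned to 0.23 with the muscle covariate and to 0.17 without the muscle and gland libraries. NDUFV2, a further iron-sulfur subunit, was the one fitted higher, 0.71 (SE 0.491), at only 0.890 to 3.40 CPM.

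Complex II, succinate dehydrogenase, is the link to the tricarboxylic acid cycle. SDHC, one of its membrane anchors, stood at 66.4, 54.1, 92.2 and 73.3 CPM in knockdown 1 to 4 and at 64.1, 83.0, 87.8 and 108 CPM in control 1 to 4, with wide overlap (-0.018, SE 0.337). SDHA, the flavoprotein that binds succinate, stood at 5.71, 12.4, 3.07 and 11.9 CPM, against 26.6, 8.25, 29.8 and 19.4 CPM. Only control 2 fell within the knockdown range. Its change of -1.29 (SE 0.516) had an unadjusted p of 0.0349 and an adjusted p of 0.981 in edgeR. SDHA and UQCRFS1 are described because of that unadjusted p, after their values were seen. SDHB, the iron-sulfur subunit, and SDHD, the other anchor, were fitted at -0.23 and -0.20.

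All 4 nuclear members of complex III, which passes electrons from ubiquinol to cytochrome c, were fitted lower. UQCRC1, a core subunit, stood at 77.1, 126, 60.3 and 194 CPM in knockdown 1 to 4 and at 256, 147, 301 and 149 CPM in control 1 to 4. Knockdown 4 lay inside the control range and the other 3 below it (-0.81, SE 0.423, adjusted p = 0.981). UQCRFS1, the Rieske iron-sulfur protein, stood at 39.3, 67.1, 39.8 and 78.6 CPM, against 124, 54.5, 209 and 111 CPM (-1.01, SE 0.411, unadjusted p = 0.0367, adjusted p = 0.981 in edgeR). Again control 2 was the control library within the knockdown range. UQCRC2, the other core subunit, was fitted at -0.24 and CYC1, cytochrome c1, at -0.27.

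Of the 9 nuclear members of complex IV, 7 were fitted lower. COX4I1, the usual form of the largest nuclear subunit, stood at 110.1, 137, 121 and 196 CPM in knockdown 1 to 4 and at 182, 167, 159 and 185 CPM in control 1 to 4. It was the steadiest member over the 8 libraries, with a factor of 1.78 between lowest and highest (-0.15, SE 0.308). COX5A, COX5B and COX6C were fitted at -0.20, -0.31 and -0.31, and NDUFA4, a subunit first counted to complex I, at -0.48.

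In ATP synthase all 4 nuclear members were fitted lower. ATP5F1B, the catalytic beta subunit, stood at 432, 374, 322 and 552 CPM in knockdown 1 to 4 and at 596, 643, 689 and 563 CPM in control 1 to 4. It was the 1 member of 43 whose labels did not overlap on CPM, beside 2.35% of all genes. On CPM scaled by TMM factors, a check added after the values were seen, they overlapped narrowly, with a highest knockdown value of 525 CPM and a lowest control value of 521 CPM. Its fitted change was -0.40 (SE 0.375, adjusted p = 0.981). ATP5F1A, the alpha subunit, ATP5F1C, the gamma subunit of the central stalk, and ATP5PO, in the outer stalk, were fitted at -0.28, -0.37 and -0.097.

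Reads of some members may not be told from those of other genes. Their counts depend on how shared reads were treated, so their levels are uncertain. In the GENCODE v29 models, 72.5% of the 100-base stretches of the longest NDUFV2 transcript, 67.1% for ATP5PO and 46.7% for NDUFB8 also occur in transcripts of another gene. For COX6A1 it was 33.8% and for COX6A2 22.6%. Overlapping genes on the same strand had 0 CPM in all libraries for ATP5PO and NDUFB8, and at most 0.0544 CPM for NDUFV2. Exons of NDUFB8 overlap those of HIF1AN on the opposite strand, which stood at 75.1 to 132 CPM, against 2.33 to 4.53 CPM for NDUFB8.

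**Figure D3:**
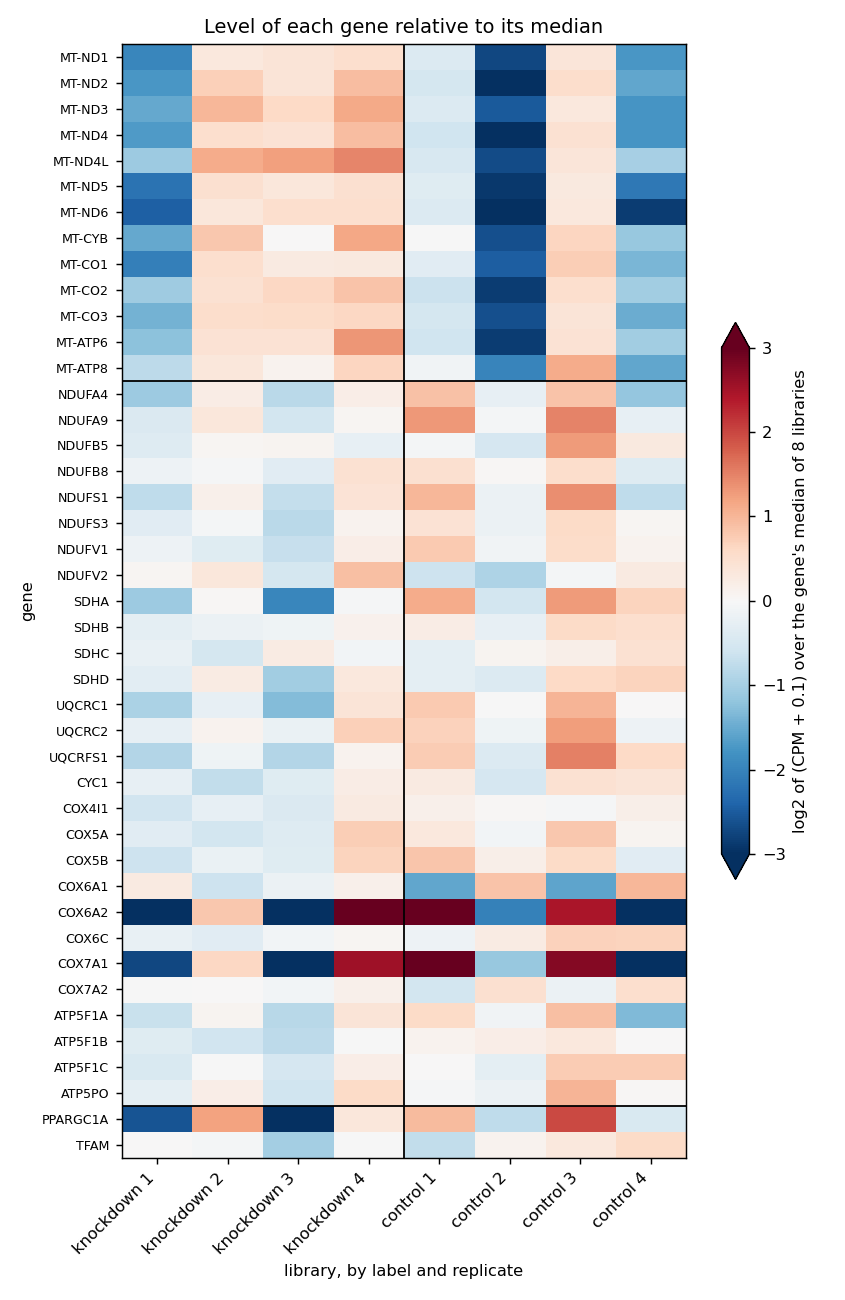
Rows are the 43 genes and columns the 8 libraries, and colour gives the log2 of the level (CPM + 0.1) over the median of the 8 libraries for that gene, cut at 3 on either side; lines divide mitochondrial genes, nuclear subunits, regulators and the labels. The mitochondrial block is deep blue in knockdown 1, control 2 and control 4 and pale blue in control 1, while COX6A2, COX7A1 and PPARGC1A follow an order of their own, and 17 of 28 nuclear subunits are highest in control 3.

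Nuclear subunits were highest in control 3 for 17 of 28 genes, in control 1 for 5, in control 4 for 4 and in knockdown 4 for 2. They were lowest in knockdown 3 for 9 and in knockdown 1 for 7. No mitochondrial mRNA was lowest in knockdown 3.

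**Figure D4:**
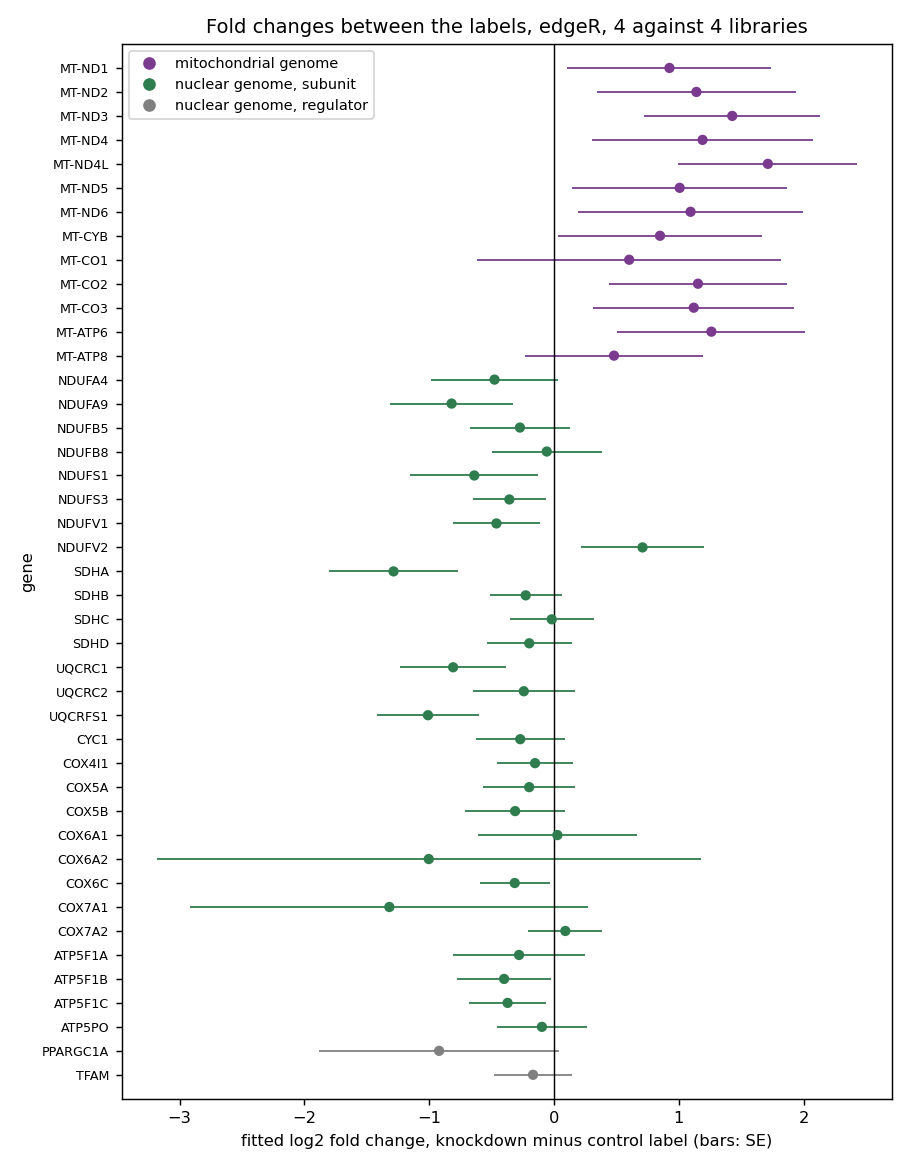
Points give the fitted log2 fold change of each of the 43 genes, knockdown minus control label, with bars of 1 SE (edgeR, 4 against 4 libraries); purple marks the mitochondrial genome, green the nuclear subunits and grey the regulators. The 13 mitochondrial points lie between 0.48 and 1.71, the nuclear median is -0.30, and COX6A2 and COX7A1 have the widest bars.

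COX6A2, the striated muscle form of a complex IV subunit that regulates the enzyme, lies on chromosome 16 (GRCh38, chr16:31427731-31428428, minus strand). It had 0, 69, 0 and 404 counts in knockdown 1 to 4 and 604, 14, 234 and 0 counts in control 1 to 4, or 0, 2.25, 0 and 11.1 CPM against 16.4, 0.227, 7.26 and 0 CPM. Libraries of both labels were high and libraries of both were at 0. A count of 0 allows up to 0.0823 CPM in knockdown 3 (3 counts; counting error only). COX6A1, the general form, stood at 19.5, 10.6, 14.3 and 18.0 CPM, against 5.46, 29.4, 5.30 and 32.3 CPM, and was lowest in control 1 and control 3, where COX6A2 was high.

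Of the counts of this pair, COX6A2 took 0%, 17.6%, 0% and 38.1% in knockdown 1 to 4 and 75.0%, 0.764%, 57.8% and 0% in control 1 to 4. The shares are for setting libraries side by side, since the genes differ in exon length (541 and 1344 bases). The Wilson 95% interval was 71.9% to 77.9% in control 1 and 52.9% to 62.5% in control 3, so counting error does not bridge these libraries. The share was above 10% in the 4 libraries whose muscle genes exceeded 1% of counts, and below 1% in the other 4.

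COX7A1, the muscle form of a further complex IV subunit (GRCh38, chr19:36150922-36152869, minus strand), stood at 1.63, 17.5, 0.658 and 66.4 CPM in knockdown 1 to 4 and at 117, 5.07, 76.5 and 0.634 CPM in control 1 to 4. COX7A2, the general form, stood at 45.5, 46.0, 42.9 and 51.2 CPM, against 31.3, 63.9, 40.4 and 65.2 CPM. COX7A1 thus spanned a factor of 184 over the libraries and COX7A2 a far narrower range. COX7A1 took 3.45%, 27.6%, 1.51% and 56.5% of the counts of its pair in knockdown 1 to 4 and 78.8%, 7.34%, 65.5% and 0.964% in control 1 to 4. The libraries ranked control 1, control 3, knockdown 4, knockdown 2 and control 2 from the top in both pairs. Muscle counts ranked them the same way, and the part of muscle content in these shares was not tested.

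**Figure D5:**
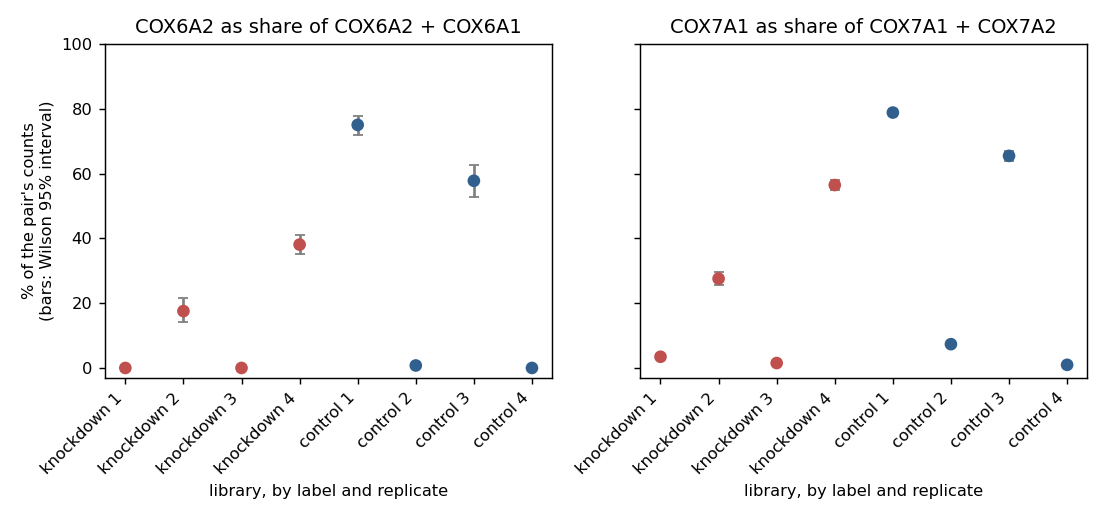
Points give the share of counts in the muscle form of each pair (%), COX6A2 over COX6A2 and COX6A1 at left and COX7A1 over COX7A1 and COX7A2 at right, for each of the 8 libraries, with bars of the Wilson 95% interval; red is the knockdown label and blue the control label. Control 1 and control 3 are the highest of both pairs and control 4 is among the lowest of both.

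Between the labels neither pair differed beyond its spread. The log2 ratio of COX6A2 to COX6A1 counts (0.5 added to each) averaged -6.04 ± 5.34 and -4.16 ± 6.30 (SD, n = 4 each), a difference of -1.88 (exact two-sided permutation p = 0.600, adjusted p = 0.657 over 2 pairs, 95% interval -12.75 to 11). For COX7A1 to COX7A2 it averaged -2.95 ± 2.95 and -1.87 ± 4.01, a difference of -1.08 (exact two-sided permutation p = 0.657, adjusted p = 0.657, 95% interval -7.85 to 7). The smallest p that 70 assignments allow is 0.0286. Without control 1 both differences changed sign, to 0.040 and 0.18. The fitted changes of the single genes were -1.0 (SE 2.18) for COX6A2, -1.32 (SE 1.59) for COX7A1, 0.027 (SE 0.639) for COX6A1 and 0.090 (SE 0.296) for COX7A2. With the muscle covariate those of COX6A2 and COX7A1 were 3.19 and 1.75, none of them called. That covariate was linear in percent, so these are not shown to be changes at equal muscle content. Without the libraries over 1% muscle or gland counts COX7A1 stayed negative, at -0.87. Leaving out 1 library moved COX7A1 from -3.09 (without knockdown 4) to -0.18 (without control 1).

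The sequence before the start of COX6A2 is shown because the gene had such an on and off pattern. In the RefSeq table of promoters (GRCh38.p14), the 250 bases before its start hold 2 E-boxes (CANNTG, the motif of myogenic factors; both strands searched) and 1 match to the MEF2 motif. Of all 35116 promoters of this length, 61.8% hold an E-box, 14.0% the form CAGCTG and 2.80% a MEF2 match. The part outside the GENCODE v29 gene follows (182 bases, chr16:31428429-31428610, minus strand), with the CAGCTG that begins 139 bases before the start and the MEF2 match that begins 99 bases before it in capitals.
COX6A2 upstream: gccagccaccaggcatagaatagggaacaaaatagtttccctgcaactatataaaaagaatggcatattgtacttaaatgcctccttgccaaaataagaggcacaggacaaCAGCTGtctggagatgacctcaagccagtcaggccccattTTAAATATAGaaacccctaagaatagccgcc
The same window of COX6A1 holds no E-box and no MEF2 match, and 1 match to CCGGAAG, a motif of ETS factors such as GABP, found in 8.52% of promoters. Of the 28 nuclear subunits 21 had an entry, of which 6 held CCGGAAG and 7 held the motif of NRF1, a factor for respiratory genes, which 5.07% of all promoters held. Of these 21 promoters, 12 held an E-box, 4 the form CAGCTG and 2 a MEF2 match, those of COX6A2 and NDUFA9. The ERR motif TCAAGGTCA was in none of the 21 and in 0.319% of all. These matches are letters in a window and say nothing of binding.

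Other pairs of general and restricted forms were read beside these. SLC25A4, the ADP/ATP carrier of muscle, took 1.33%, 42.6%, 2.17% and 44.4% of its pair with SLC25A5 in knockdown 1 to 4 and 89.0%, 3.83%, 81.0% and 5.25% in control 1 to 4. It was high in the libraries where COX6A2 and COX7A1 were high. NDUFA4L2, a hypoxia-induced relative of NDUFA4, took 72.2%, 7.03%, 23.4% and 46.5%, against 2.71%, 70.4%, 6.69% and 76.1%. It was low in control 1, control 3 and knockdown 2 alike. COX7B2, a testis form, was at 0 in all libraries and COX8C and COX4I2 stayed at or under 0.0769 and 0.493 CPM.

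The muscle forms also occur in heart and brown fat. Of a list of 6 cardiac genes, NPPB was at 0 in all libraries, and NPPA, TNNI3 and MYL7 reached at most 0.439, 0.381 and 0.731 CPM. The other two were higher. MYH6, a myosin of heart that some skeletal muscles also make, reached 73.0 CPM in control 1. MYL4, a myosin light chain of the atrium and of developing skeletal muscle, stood at 2.45, 1.91 and 14.5 CPM in control 1, 2 and 3 and at most at 0.329 CPM in the other libraries. The brown fat gene UCP1 stood at most at 0.0822 CPM. The part of cardiac content was not tested.

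Muscle fibre type differed between the 2 libraries with most muscle. Slow fibre genes, of fibres rich in mitochondria, took 2.62% of counts in control 3 and 1.53% in control 1, and fast fibre genes 0.511% and 1.41%. Control 3 also had the higher mitochondrial share, 4.45% against 2.22%, the higher nuclear sum, 4018 against 3346 CPM, and more PPARGC1A. COX6A2 and COX7A1 stood higher in control 1. This sets 1 library beside 1 other, with no replicate check.

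PPARGC1A stood at 3.09, 44.3, 1.48 and 24.3 CPM in knockdown 1 to 4 and at 37.2, 11.2, 75.2 and 14.0 CPM in control 1 to 4. Control 3 was the highest and knockdown 3 and knockdown 1 were the lowest, and the labels overlapped. Its fitted change was -0.92 (SE 0.964, adjusted p = 0.981), which turned to 0.17 with the muscle covariate. Without the libraries over 1% muscle or gland counts it was -2.03 (unadjusted p = 0.0165, adjusted p = 0.374 in edgeR), with 3.09 and 1.48 CPM in knockdown 1 and 3 below 11.2 and 14.0 CPM in control 2 and 4. Leaving out 1 library moved it from -1.75 (without knockdown 2) to -0.37 (without control 3). TFAM, which packs mitochondrial DNA and starts its transcription, stood at 31.3, 29.7, 15.2 and 30.7 CPM, against 18.6, 33.4, 38.9 and 45.9 CPM (-0.17, SE 0.316). Knockdown 3, with 3.61% mitochondrial mRNA, had the least TFAM, and control 2, with the least mitochondrial mRNA, had 33.4 CPM.

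The rest of the pathway was counted from lists. Of 20 genes of mitochondrial transcription and biogenesis, 10 were fitted higher and 10 lower, none called, with a median of -0.018. LRPPRC, which stabilises mitochondrial mRNAs and had the highest CPM of that list, stood at 139, 166, 98.6 and 170.4 CPM in knockdown 1 to 4 and at 166, 181, 330.4 and 299 CPM in control 1 to 4 (-0.59, SE 0.318). Control 1 overlapped the knockdown range. PPARA, a lipid-sensing receptor and the next by CPM, was fitted at -0.067 (SE 0.299). ESRRG, a nuclear receptor partner of PPARGC1A, stood at 0, 52.2, 0 and 5.48 CPM, against 26.2, 0.583, 39.9 and 0.115 CPM, above 1 CPM in the 4 libraries with muscle counts over 1%.

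Of 12 genes used as a measure of mitochondrial mass, 2 were fitted higher and 10 lower, none called, with a median of -0.36. CS, citrate synthase, stood at 197, 136, 143 and 259 CPM in knockdown 1 to 4 and at 245, 228, 362 and 239 CPM in control 1 to 4 (-0.36, SE 0.353). Knockdown 4 lay among the controls. VDAC2, a pore of the outer membrane, was fitted at -0.13 (SE 0.436). Of 14 genes of the tricarboxylic acid cycle, 4 were fitted higher and 10 lower, none called, with a median of -0.35. OGDH, a subunit of the oxoglutarate dehydrogenase complex, had the highest CPM there, at 195, 166, 225 and 274 CPM, against 399, 225, 402 and 229 CPM (-0.37, SE 0.414). These nuclear lists lean the way of the nuclear subunits, beside 53.2% of all genes fitted lower.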

How the data were processed

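The deposited table gives, as the authors left it, whole-number read counts per gene for 8 libraries, with no normalisation. The submitters' processing notes name STAR, Subread, featureCounts and hg38. Versions, annotation release and strandedness were not given in the sources used here. Symbols matched 62666 of 63241 rows by identifier.

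Levels are CPM of column totals (30684584 to 61795990 counts). Labels were compared with edgeR 4.0.16 (R 4.3.3): filterByExpr, TMM factors (0.750 to 1.19), quasi-likelihood test, Benjamini-Hochberg adjustment over 21192 genes, threshold 0.05. Members and lists were chosen with earlier results of these data known. Values with an error are given for the 13 mitochondrial mRNAs, the 2 isoform pairs, PPARGC1A, TFAM and the subunit of highest mean CPM in each nuclear complex; for lists, counts and genes of highest CPM. Isoform ratios had exact permutation tests, and their intervals hold the shifts that test did not reject. Alternatives were DESeq2 1.42.0, limma-voom 3.58.1, other scalings, no filter, a muscle covariate, a replicate block and left-out libraries. Of these fits, the main edgeR fit alone was tested on simulated data. Gene positions, lengths and overlaps come from GENCODE v29 (GRCh38), which is not known to be the authors' annotation, and promoters from RefSeq. If reads were counted without regard to strand, those of overlapping genes on opposite strands cannot be told apart.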

Additional observations from a re-analysis of the deposited data

Results flagged for a closer look

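In 8 of 96 group values looked at (43 genes and 5 sums or ratios, in each label), 1 library of 4 lay apart, with a gap to the nearest other library above Dixon's 95% critical share of the range. Chance alone gives about 1 in 20. In 5 of the 8 the library was knockdown 1 and the value was mitochondrial: the 13 mRNAs took 0.783% of its counts, against 3.61% to 4.15% in the other 3 knockdown libraries. MT-ND1 stood at 381 CPM there (others 1845 to 2094), MT-ND5 at 291 CPM (1707 to 1889), MT-ND6 at 71.9 CPM (498 to 560) and MT-CO3 at 755 CPM (2925 to 3118). MT-ND1, MT-ND5 and MT-CO3 are read from the same strand and MT-ND6 from the other. All 5 values come from the same library, and the share sums these genes too, so the 5 are not separate observations. The other 3 were nuclear. COX5A stood at 37.2 CPM in knockdown 4 (15.1 to 17.4 in the others), ATP5PO at 22.3 CPM in control 3 (9.63 to 11.1) and TFAM at 15.2 CPM in knockdown 3 (29.7 to 31.3).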

How the results depend on the processing

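No member was called under any of the 17 alternatives run. For the 24 genes named by rule, 383 of 407 alternative log2 fold changes kept their direction, and 24 turned it, in 8 genes; the 13 mitochondrial mRNAs, UQCRC1, COX4I1 and ATP5F1B were never turned. Over all genes, DESeq2 called 148, the muscle covariate 1, and leaving out 1 library 0 to 1 (1 without knockdown 2). With library totals COX6A1 was -0.21 and COX7A2 -0.11, and with no filter on low counts COX6A1 was -0.038. With the muscle covariate COX6A1 was -0.42, COX6A2 3.19, COX7A1 1.75, COX7A2 -0.15, PPARGC1A 0.17 and NDUFS1 0.23. Without the libraries over 1% muscle or gland counts COX6A1 was -0.42, COX7A2 -0.086, NDUFS1 0.17, SDHC 0.21, PPARGC1A -2.03 and COX7A1 -0.87, and the nuclear median 0.047; COX6A2 was not tested there. Leaving out 1 library gave -0.29 to 0.45 for COX6A1, -3.29 to 0.59 for COX6A2, -3.09 to -0.18 for COX7A1, -1.75 to -0.37 for PPARGC1A, -0.042 to 0.23 for COX7A2, -0.34 to 0.0067 for TFAM and -0.31 to 0.16 for SDHC. The difference in log2 ratio ran from -4.39 to 0.040 for COX6A2 over COX6A1 and from -2.67 to 0.18 for COX7A1 over COX7A2, above 0 only without control 1. The causes were not tested. With a replicate block, libraries paired by number, 0 genes were called and the medians were 1.40 (mitochondrial) and -0.27 (nuclear). Libraries of the same number did not deviate together (correlations -0.64, -0.48, -0.37 and -0.40), so the numbers are not taken to pair them. Counting error weighs most on members with few counts: the lowest count in a library was 0 for COX6A2, 24 for COX7A1, 41 for NDUFV2, 54 for PPARGC1A, 65 for MT-ATP8 and 89 for NDUFB8.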
